A study of Mus musculus with 8 samples.

Results

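The genes described here handle fatty acids from the cell surface to the lipid droplet: the uptake and carrier proteins Cd36, Fabp3 and Fabp5, lipoprotein lipase (Lpl) and its inhibitor Angptl4, the droplet coat protein Plin2, the triglyceride-making enzymes Dgat1 and Dgat2, and the lipases Pnpla2 and Lipe. They are 10 of 21887 protein-coding genes of the RefSeq annotation of GRCm38.p6. Their chromatin was followed at every deposited peak whose centre lay inside 1 of these genes or within 50 kb of it, which gave 137 of the 134407 peaks of the table. A peak is a short stretch of fixed width in which the Tn5 transposase inserted often, a sign of open chromatin. Of the 137 peaks, 50 had a member's end as their nearest gene end and are called the genes' own peaks. The other 87 lay nearer to the end of another gene and are named by that gene.

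Accessibility was measured by ATAC-seq in wild-type E14 cells, an established line of mouse embryonic stem cells grown on gelatin in serum with LIF. Control cultures (4 libraries) were compared with cultures given 200 nM of INK128, an inhibitor of the mTOR kinase, for 24 h (4 libraries, "paused"), which asks how chromatin differs in an in vitro model of paused pluripotency. Both groups came from the same line and medium, and each library from 50000 live cells. The labels do not say whether replicates were separate cultures. The p-values thus weigh a difference of means against a spread between libraries that may be technical. In bulk cells a shift in the mix of cells and a change within each cell cannot be told apart.

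Fatty acids enter cells with the help of CD36 or after lipoprotein lipase has freed them from circulating triglyceride, and fatty acid binding proteins carry them through the cytosol. DGAT enzymes add the last acyl chain of triglyceride, which is stored in droplets coated by perilipin 2. Adipose triglyceride lipase (Pnpla2) and hormone-sensitive lipase (Lipe) take the stored fat apart again.

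RefSeq start sites with promoter sequence were at hand for 5 of the 10 genes (6 starts, since Lipe has a pair). They are shown because they lie under or beside the peaks at these starts, in lower case and read 5′ to 3′ along the gene: what lies upstream of a start inside a deposited peak, and the 250 bases before the starts of Fabp3 and of the upstream Lipe start, whose nearest peaks stood close to these stretches. Capitals mark any of the motifs searched on both strands. The positions (GRCm38.p6) are 4:130308488-130308737 on the plus strand for Fabp3, 7:25395988-25396237 on the minus strand for the upstream Lipe start, 7:25390113-25390231 on the minus strand for the downstream Lipe start, 7:141455022-141455187 on the plus strand for Pnpla2 and 4:86670060-86670147 on the minus strand for Plin2.
Fabp3: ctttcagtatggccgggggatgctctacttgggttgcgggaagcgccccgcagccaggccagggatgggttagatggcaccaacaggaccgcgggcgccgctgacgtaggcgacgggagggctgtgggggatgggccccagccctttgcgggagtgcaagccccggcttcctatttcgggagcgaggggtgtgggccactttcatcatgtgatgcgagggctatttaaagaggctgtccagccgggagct
Lipe, upstream start: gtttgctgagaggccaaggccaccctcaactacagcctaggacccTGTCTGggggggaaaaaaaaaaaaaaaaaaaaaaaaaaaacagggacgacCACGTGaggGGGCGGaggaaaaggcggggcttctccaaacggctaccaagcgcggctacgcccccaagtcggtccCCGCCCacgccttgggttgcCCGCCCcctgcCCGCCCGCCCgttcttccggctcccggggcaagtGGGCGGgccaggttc
Lipe, downstream start, inside its peak: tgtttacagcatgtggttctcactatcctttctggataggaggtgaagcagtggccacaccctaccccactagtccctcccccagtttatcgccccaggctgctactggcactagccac
Pnpla2, inside its peak: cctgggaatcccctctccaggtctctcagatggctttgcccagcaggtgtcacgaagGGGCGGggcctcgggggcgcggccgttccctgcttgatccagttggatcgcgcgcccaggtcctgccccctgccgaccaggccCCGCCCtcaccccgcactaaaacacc
Plin2, inside its peak: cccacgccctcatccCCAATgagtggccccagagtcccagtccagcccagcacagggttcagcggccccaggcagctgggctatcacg

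Among the motifs, the GC box GGGCGG stood in the 250 bases before the starts of Cd36, Lipe and Pnpla2, and in 32.7% of all 32851 promoter windows of the RefSeq table. The CCAAT box stood before Cd36 and Plin2 (33.8% of all), the Smad-type box CAGACA before Lipe and Plin2 (17.1%), and the E-box CACGTG before the upstream Lipe start (6.02%). The letters AGGTCA, which many nuclear receptors read, stood before Cd36 and Plin2 and in 14.0% of all windows. A pair of AGGTCA with 1 base between them, the arrangement bound by PPAR receptors, was in 0 of the 6 windows and in 0.0335% of all, and TATAAA was in 0 of the 6 and in 12.4% of all. The 250 bases before Fabp3 held none of these motifs, with 64.8% GC and 17 CpG. The stretch before the downstream Lipe start held none either, with 58.8% GC and 1 CpG, against 62.8% GC and 18 CpG before the upstream start and medians of 52.4% and 6 CpG over all windows. A match or a miss describes letters in these windows only.

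Values are the authors' scaled reads per peak: reads divided by 1 factor per library. Peaks with a mean of at least 10 were tested on log2(value + 1) with limma-trend, and a peak is called where its Benjamini-Hochberg adjusted p, over all peaks tested, is under 0.05. Over all peaks of the series, 17660 of 127402 peaks were called (13.9%), 13958 higher in paused cells (11.0%) and 3702 lower (2.91%). The median log2 change of all peaks was 0.10, and it was 0.00 after TMM scaling and -0.01 after a loess correction on peak strength, so that 79.0% of calls were higher as deposited, against 59.1% with TMM and 59.3% with loess. Reads in peaks ran from 4434037 to 21161767 per library (control 1 the deepest, the others at most 7238935), and 3 reads were worth 1.04 in control 1 and up to 5.08 in control 3. Markers of embryonic stem cells were open in all libraries: the summed value of 6 of 7 genes rose in paused cells by the test used for gene sums below (29.5% of all genes did), with list sums of 8424 to 8841 in controls and 9498 to 10856 in paused libraries. Of 15 markers of fibroblasts, primitive endoderm, trophoblast and adipocytes, 1 rose (Thy1) and 1 fell (Retn), with list sums of 5157 to 5508 and 5274 to 5862, and none of these genes was without peaks; their part in the results was not tested.

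Of the 137 peaks, 133 passed the filter; 19 were higher and 3 lower in paused cells, a share of 16.5% against 13.9% of all peaks, and their median log2 change of 0.10 was that of all peaks. With TMM the counts were 8 higher and 7 lower, where 5.99% of all peaks rose and 4.15% fell. With loess they were 7 and 7, where 5.10% rose and 3.50% fell. Without paused replicate 4 they were 10 and 1, where 8980 of all 127402 peaks tested rose and 2587 fell. Without control replicate 1 they were 16 and 1, where 10623 rose and 2331 fell. The 2 groups of libraries did not overlap at 28 of the 133 peaks, against 17.4% of all peaks tested (13.0% with the paused libraries higher). All 3 falls lay at peaks nearer to another gene. Among the genes' own peaks, 49 were tested, 10 rose and 0 fell, with a median of 0.14. By unadjusted p under 0.05 in the same limma fit, 14 were higher and 1 lower. No share of all peaks or genes is given for counts by unadjusted p, here or below, so they cannot be weighed against one. On recovered reads, edgeR with TMM called 5 own peaks higher and 1 lower, in Dgat2, beside 7.13% and 5.54% of all peaks. With the authors' factors edgeR called 11 higher and 1 lower, beside 12.9% and 3.63%, and DESeq2 called 2 and 0, beside 3.06% and 1.49%. The 10 own calls lay in 6 genes: Fabp3 with 3, Fabp5 and Lpl with 2 each, and Plin2, Lipe and Angptl4 with 1 each. Without control replicate 4 the count was 4, where 11874 of all 127402 peaks tested rose. Without paused replicate 4 it was also 4, where 8980 did. Without paused replicate 2 or 3 it was 6, where 10344 and 11854 did. Under TMM or loess only the 2 strongest calls of Fabp3 stood. The authors' deposited table, at an FDR under 0.05, lists 9 of the own peaks as higher and 0 as lower, beside 9.19% of all peaks higher and 11.0% either way.

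**Figure D1:**
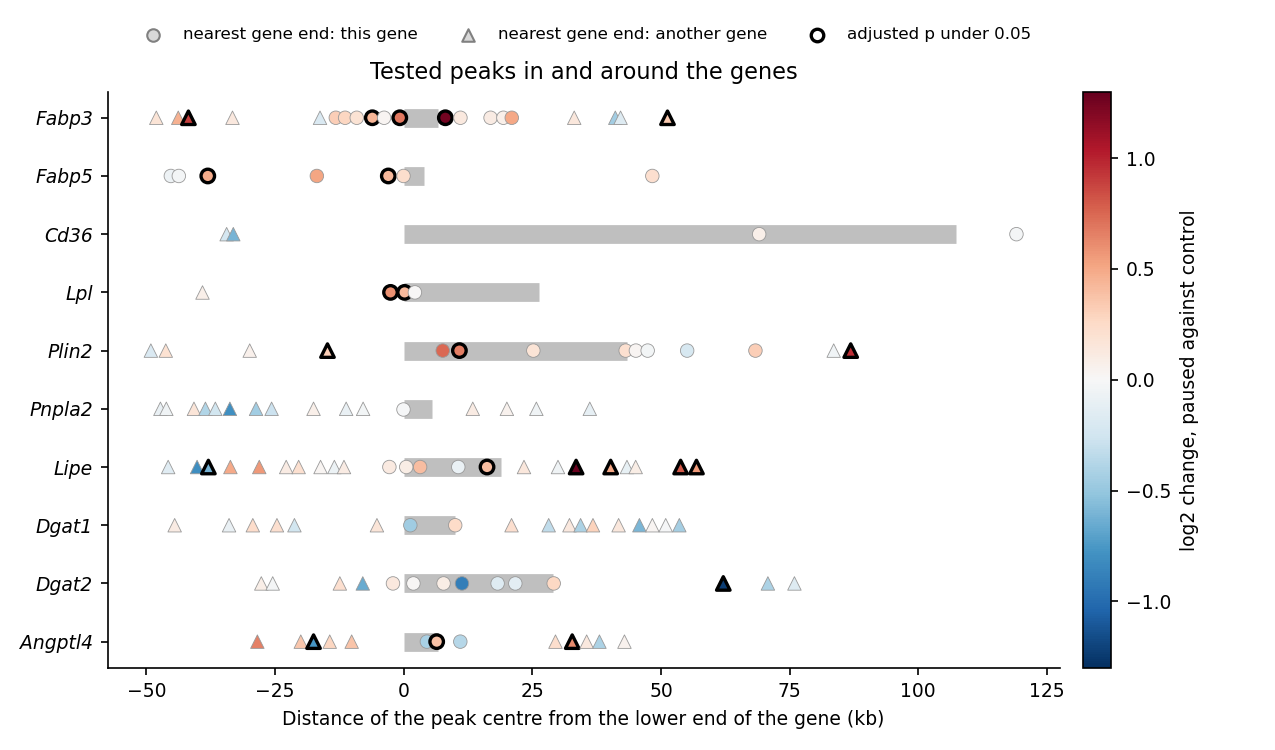
Tested peaks around each gene, by distance of the peak centre from the gene's lower end in kb (grey bar: the gene), coloured by log2 change of paused against control. Circles are the genes' own peaks, triangles peaks nearer to another gene, and black rims mark the 22 peaks with an adjusted p under 0.05; Pnpla2, Dgat1 and Cd36 have none.

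To weigh each gene as a whole, the values of its own peaks within 50 kb were summed per library and fitted in the same way over all 18301 genes that passed the filter. Of all genes 30.9% were called, 5394 higher (29.5%) and 261 lower (1.43%), with a median log2 change of 0.14 that moved to 0.04 with TMM and to -0.00 with loess; changes are therefore also given relative to that median. Of the 10 genes, 5 rose (Fabp3, Fabp5, Lpl, Lipe and Dgat1) and 0 fell, and their median log2 change was 0.22. By unadjusted p under 0.05, 7 were higher and 0 lower, without a share of all genes to set beside them. The groups did not overlap in 4 of the 10, against 27.1% of all genes (25.5% with the paused libraries higher). With TMM or loess 2 of the 10 rose, Fabp3 and Lpl, and 0 fell, where 7.66% (TMM) and 4.67% (loess) of all genes rose and 2.40% and 4.38% fell. Without paused replicate 3 there were 3 (Fabp3, Lpl and Angptl4), where 3942 of all 18301 genes rose. Without paused replicate 4 there were also 3 (Fabp3, Fabp5 and Lpl), where 3610 did. When all peaks within 50 kb were summed, those nearer to other genes included, 7 rose (Angptl4 and Plin2 as well). In that setting 10116 of all 20225 genes tested rose. Without each gene's strongest peak 3 rose (Fabp3, Fabp5 and Lpl), where 3082 of all 15288 genes tested did. Fabp3 and Lpl stayed past the threshold under each of the 16 other ways of processing that were run.

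**Figure D2:**
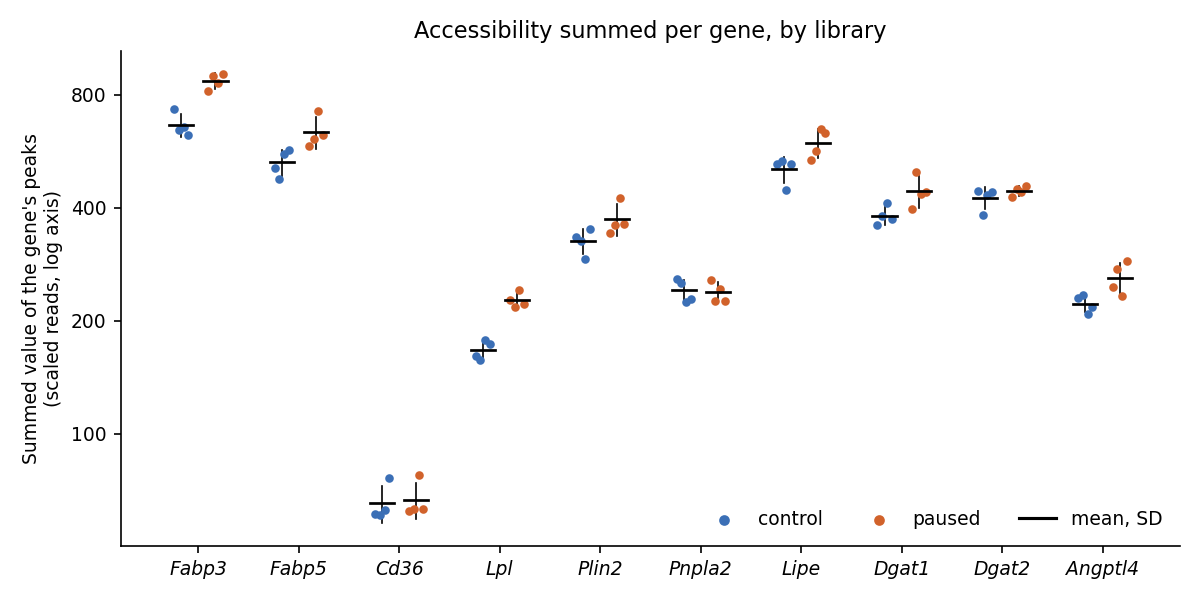
Summed value of each gene's own peaks (scaled reads, log axis) in the 4 control and 4 paused libraries, with means and SD. Fabp3, Fabp5, Lpl and Lipe show no overlap between groups, and the points of Cd36 and Pnpla2 lie over each other.

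Among the uptake and carrier genes, Fabp3 and Fabp5 rose, while the interval of Cd36 spanned 0. Differences between these genes were not tested. Fabp3 encodes heart-type fatty acid binding protein, a cytosolic carrier. Its summed value was 732, 646, 659 and 625 in controls 1 to 4 and 821, 901, 858 and 910.3 in paused libraries 1 to 4. Every paused library was above every control. The mean went from 665 ± 46.7 to 873 ± 41.0 (SD, n = 4 each), a log2 change of 0.39 (SE 0.06, limma-trend adjusted p = 5.98e-05) and 0.25 above the median gene. Under the other settings the change ran from 0.24 to 0.44.

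The 11 own peaks of Fabp3 (4:130308738-130315463) all had a positive log2 change, from 0.03 to 1.26, though none lies inside the gene and 5 lie inside its neighbour Zcchc17. The strongest, 4:130307876-130308076, is centred 762 bp upstream of the start, a little beyond the printed promoter stretch. It measured 155, 125, 115 and 148 in controls 1 to 4 and 220.3, 194, 211 and 251 in paused libraries 1 to 4, with no overlap. Its mean rose from 136 ± 18.9 to 219 ± 23.8 (log2 0.69, SE 0.12, limma-trend adjusted p = 0.000162), and it passed in all 17 alternatives, with log2 changes of 0.48 to 0.75.

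The peak with the largest change of the own peaks, 4:130316730-130316930, stands 1367 bp past the end of Fabp3 in Zcchc17. Controls measured 29.7, 26.3, 13.6 and 19.1, and paused libraries 43.8, 58.4, 52.8 and 55.1. The lowest paused library thus exceeded the highest control, and the mean went from 22.2 ± 7.25 to 52.5 ± 6.22 (log2 1.26, SE 0.22, limma-trend adjusted p = 0.000109). The peak rests on 8 to 86 reads per library and passed in all 16 alternatives, from 0.95 to 1.41.

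The weakest of the 3 calls of Fabp3, at 4:130302541-130302741, lies 6097 bp before the gene. It measured 108, 104, 113 and 74.9 in controls and 120.0, 142, 149 and 130.0 in paused libraries, which did not overlap, with control 4 well below the others. The log2 change was 0.44 (SE 0.14, limma-trend adjusted p = 0.0235) and missed the threshold without control replicate 4 (0.13), paused replicate 2 (0.0633) or paused replicate 3 (0.0655) and with TMM (0.0957), loess (0.269), edgeR with TMM (0.118) or DESeq2 (0.283). Of the 9 window peaks nearer to another gene, 2 rose. One, in Serinc2 at 4:130266795-130266995, went from 31.3 ± 2.07 to 60.0 ± 11.98 (log2 0.90, SE 0.18, limma-trend adjusted p = 0.000651) and held in every alternative. The other, 8 bp from the end of Zcchc17, went from 263 ± 19.8 to 334 ± 35.4 (log2 0.34, adjusted p = 0.0292) and was lost without control replicate 3 (0.1), paused replicate 2 (0.118) or paused replicate 4 (0.0832), and with TMM (0.137), loess (0.447), edgeR with TMM (0.151) or DESeq2 (0.26).

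Fabp5, the epidermal-type carrier, summed to 510.2, 479, 557 and 570.2 in controls and 584, 610.4, 726 and 624 in paused libraries. No paused library reached down to the highest control. The change from 529 ± 42.2 to 636 ± 62.3 gave a log2 of 0.26 (SE 0.08, limma-trend adjusted p = 0.00966), 0.12 above the median gene. It missed the threshold without paused replicate 3 (0.0522), with TMM (0.141) and with loess (0.312).

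All 7 peaks within 50 kb of Fabp5 (3:10012585-10016610) had it as their nearest gene, none inside it, and 2 were called. At 3:9974409-9974609, 38076 bp away, controls measured 72.9, 64.5, 77.9 and 58.8 and paused libraries 80.8, 86.8, 112 and 107. The groups stood apart (log2 0.48, SE 0.15, limma-trend adjusted p = 0.0227), but the call went without control replicate 4 (0.0783), paused replicate 3 (0.0785) or paused replicate 4 (0.0871), and with TMM (0.0834), loess (0.201), edgeR with TMM (0.0731) or DESeq2 (0.236). The peak 2995 bp from the gene, 3:10009490-10009690, measured 69.8, 63.3, 79.6 and 67.6 against 75.0, 96.2, 113 and 94.9. Paused 1 lay within the control range there, and the change of 0.42 (SE 0.15, limma-trend adjusted p = 0.0466) was lost without any of control 1, 2 or 4 or paused 2, 3 or 4 (0.0897 to 0.155), and with TMM (0.149), loess (0.321), edgeR with TMM (0.119) or DESeq2 (0.322); the authors' deposited table gives it an FDR of 0.0552. The strongest peak, 3:10012448-10012648 at 37 bp from the gene's end, measured 206, 217, 249 and 275 in controls and 264, 246, 315 and 279 in paused libraries. These overlapped, and the log2 change of 0.22 (95% interval -0.00 to 0.45, limma-trend adjusted p = 0.185) was not called.

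Cd36, the membrane receptor for long-chain fatty acids, had the lowest summed value of the 10. It was 61.2, 60.9, 62.6 and 76.4 in controls and 62.3, 63.1, 77.6 and 63.3 in paused libraries, with 1 high library in each group. The means of 65.3 ± 7.45 and 66.6 ± 7.36 differed by a log2 of 0.03 (95% interval -0.27 to 0.33, limma-trend adjusted p = 0.897), and the sign turned to -0.07 with TMM and -0.08 with loess. Its 107270 bp span held 1 peak, and no peak lay within 2 kb of the listed start. The strongest own peak, 5:17900671-17900871 at 11812 bp, measured 37.0, 35.8, 32.2 and 44.1 against 34.6, 34.7, 49.6 and 29.3, which overlap throughout (log2 -0.03, SE 0.20, limma-trend adjusted p = 0.95). The 2 peaks nearer to Sema3c had log2 changes of -0.60 and -0.23, neither called; by limma-trend with TMM (-0.70, adjusted p = 0.0344) or loess (-0.69, 0.0432) and by edgeR with TMM the first was lower.

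**Figure D3:**
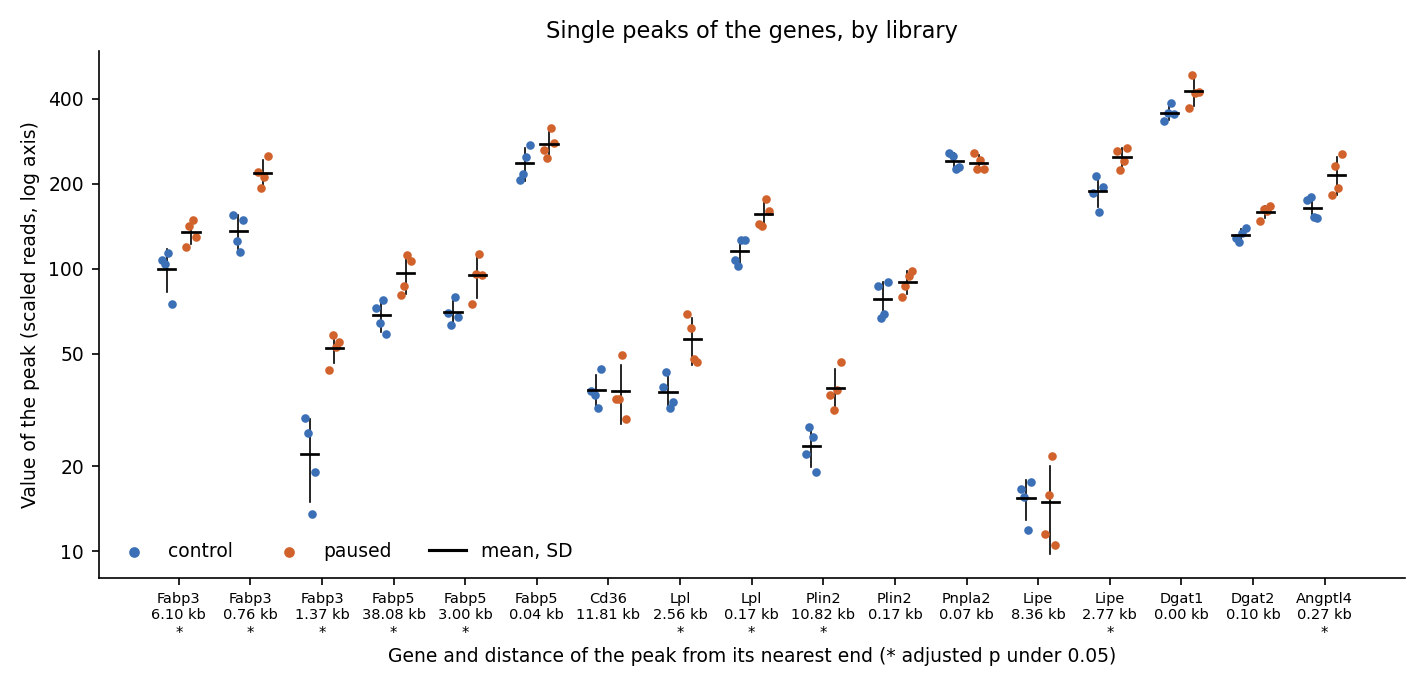
Single own peaks of the 10 genes in each library (scaled reads, log axis), with mean and SD, ordered by gene and marked with the distance from the nearest gene end in kb. A star marks an adjusted p under 0.05; both Fabp3 peaks nearest to the gene, at 0.76 and 1.37 kb, separate the groups most.

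Lpl, the lipase that releases fatty acids from lipoproteins, rose, and its inhibitor Angptl4 did not pass as a gene. The difference between them was not tested. Lpl summed to 161, 158, 178 and 173 in controls and 227, 218, 242 and 221 in paused libraries. The gap between the highest control and the lowest paused library was wider than the spread within either group. The mean went from 167 ± 9.64 to 227 ± 10.7, a log2 change of 0.44 (SE 0.10, limma-trend adjusted p = 0.00133) and 0.29 above the median gene, with a range of 0.30 to 0.47 under the other settings.

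Lpl (8:68880555-68906932) had 3 own peaks, and 2 rose. The strongest, 8:68880626-68880826, is centred 171 bp inside the gene's lower end. It measured 108, 103, 127 and 126 in controls and 144, 142, 177 and 161 in paused libraries, all paused ones higher. The log2 change was 0.43 (SE 0.13, limma-trend adjusted p = 0.0186). It missed the threshold without control 1 (0.0598), control 2 (0.0566), paused 3 (0.0648) or paused 4 (0.0585), and with TMM (0.0817), loess (0.248) or DESeq2 (0.169). The second, 8:68877890-68878090, lies 2565 bp outside the gene and measured 38.0, 43.0, 32.2 and 33.8 against 69.2, 61.5, 48.1 and 46.9. The groups did not overlap, though paused 3 and 4 were well under paused 1 and 2 (log2 0.59, SE 0.18, limma-trend adjusted p = 0.0217). That call was lost without control 3 (0.0596), control 4 (0.0523), paused 1 (0.0909) or paused 2 (0.0652), and with TMM (0.0721), loess (0.107), edgeR with TMM (0.0537) or DESeq2 (0.212). With TMM or loess neither single peak kept its call by limma-trend, while the sum over the gene kept its own. The third own peak had a log2 change of 0.01, and 1 peak nearer to Ints10 had 0.08.

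Angptl4, a secreted inhibitor of lipoprotein lipase, summed to 230.2, 234, 208 and 217 in controls and 247, 274, 233 and 288 in paused libraries. Paused 3 fell inside the control range. The log2 change of 0.22 (95% interval 0.03 to 0.41, limma-trend adjusted p = 0.067) was 0.08 above the median gene. It passed without paused replicate 3 (0.0379), where 3942 of all 18301 genes rose, and with the replicate number as a block, where 6626 did. It also passed when all peaks of the window were summed (log2 0.21, 0.00145), where 10116 of all 20225 genes rose. The peak 268 bp inside the upper end of the gene, 17:33781207-33781407, made up 78.8% of the sum. It measured 176, 179, 152 and 151 in controls and 182, 232, 194 and 255 in paused libraries, without overlap but with paused 1 close to control 2. It rose by a log2 of 0.38 (SE 0.12, limma-trend adjusted p = 0.0293), and missed the threshold without control 3 (0.0846), control 4 (0.089), paused 2 (0.0898) or paused 4 (0.154) and with TMM (0.126), loess, edgeR with TMM and DESeq2. The other own peaks had log2 changes of -0.42 and -0.37, neither called.

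The window of Angptl4 (17:33774900-33781575) held 2 calls at peaks of its neighbours, in opposite directions. Near Kank3, 17:33807547-33807747 measured 103, 97.9, 81.3 and 82.3 in controls and 129, 164, 115 and 156 in paused libraries. The groups did not overlap (log2 0.62, SE 0.14, limma-trend adjusted p = 0.00184), and the call held in all 17 alternatives. In Rab11b, 17:33757277-33757477 measured 36.0, 26.3, 32.2 and 35.3 against 13.8, 31.6, 18.6 and 14.1. Paused 2 stood among the controls, and the fall of -0.77 (SE 0.25, limma-trend adjusted p = 0.0317) was lost without control 1 (0.0971), control 3 (0.0601), control 4 (0.0822), paused 1 (0.0967) or paused 4 (0.108) and with DESeq2.

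Plin2, which coats lipid droplets in most cell types, did not pass as a gene. Its sum was 334, 327, 293 and 351 in controls and 344, 359.6, 425 and 362 in paused libraries, with paused 1 below control 4. The log2 change was 0.19 (95% interval 0.01 to 0.36, limma-trend adjusted p = 0.0898), 0.04 above the median gene. Summed over all peaks of the window, those nearer to other genes included, it was 0.24 (limma-trend adjusted p = 0.00386). By such sums 10116 of all 20225 genes rose. The peak over the start site, 4:86669947-86670147, whose upstream part is printed above, measured 86.8, 66.9, 69.4 and 89.6 in controls and 79.6, 86.8, 94.7 and 98.4 in paused libraries. The groups overlapped (log2 0.21, 95% interval -0.08 to 0.49, limma-trend adjusted p = 0.353).

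Of the 8 own peaks of Plin2 (4:86626910-86670217), 1 rose, at 4:86637633-86637833 inside the gene and 10823 bp from its nearer end. It measured 22.1, 27.5, 25.4 and 19.1 in controls and 35.8, 31.6, 37.2 and 46.9 in paused libraries, with no overlap. The log2 change of 0.66 (SE 0.21, limma-trend adjusted p = 0.0311) was lost without control 1 (0.077), control 4 (0.0882) or paused 4 (0.129), and with TMM (0.0822), loess (0.0825) or DESeq2 (0.202). Another peak in the same gene, 4:86634393-86634593, picked out after its values were seen, had a log2 change of 0.75 (SE 0.26, limma-trend adjusted p = 0.0523) and passed in both edgeR tests. Of 6 peaks nearer to another gene, 2 rose. At 4:86713679-86713879, 34739 bp from Dennd4c, the value went from 22.1 ± 6.52 to 42.3 ± 1.94 (log2 0.96, SE 0.22, limma-trend adjusted p = 0.00273), with only DESeq2 short of the threshold (0.0871). At the end of Haus6 it went from 291 ± 24.3 to 363 ± 31.2 (log2 0.32, limma-trend adjusted p = 0.0374), which was lost without control 1 (0.0887), control 2 (0.083), control 4 (0.0584), paused 3 (0.107) or paused 4 (0.0991) and with TMM (0.173), loess (0.483), edgeR with TMM (0.157) or DESeq2 (0.26).

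The enzymes of the last step of triglyceride synthesis had strong peaks at a gene end and small differences. Dgat1 summed to 359.5, 379.8, 411 and 375 in controls and 397, 500.0, 436 and 441 in paused libraries, where paused 1 overlapped the controls and paused 2 was the highest. Its mean rose from 381 ± 21.8 to 443 ± 42.6 (log2 0.21, SE 0.08, limma-trend adjusted p = 0.0434), 0.07 above the median gene. The call was lost without control 1 (0.118), control 2 (0.0638), control 4 (0.0837), paused 2 (0.166), paused 3 (0.0612) or paused 4 (0.0903), and with TMM (0.389) or loess (0.685), and without the gene's strongest peak the change turned to -0.46 (0.196). The peak 3 bp from the upper end of Dgat1, 15:76511918-76512118, made up 94.9% of the sum and was stronger than 99.5% of all peaks. It measured 334, 356, 386 and 353 in controls and 373, 487, 420.5 and 422 in paused libraries, which overlap, and taken alone was not called (log2 0.25, 95% interval 0.04 to 0.46, limma-trend adjusted p = 0.1). The other own peak had a log2 change of -0.46. Of 16 tested neighbouring peaks none was called; in the whole window 3 were higher and 0 lower at an unadjusted p under 0.05, edgeR with TMM called 1 lower and edgeR with the authors' factors 1 higher (both near Slc52a2), and DESeq2 called 0.

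Dgat2, the second DGAT enzyme, unrelated in sequence to the first, summed to 443, 383, 433 and 442 in controls and 427, 449.5, 442 and 457 in paused libraries. The groups overlapped, and the log2 change of 0.06 (95% interval -0.09 to 0.22, limma-trend adjusted p = 0.537) turned to -0.04 with TMM and -0.09 with loess. At its upper end, 7:99182710-99182910, the value was 129, 124, 134 and 139.6 in controls and 148, 162, 159.8 and 166 in paused libraries. These did not overlap, yet the log2 change of 0.27 (95% interval 0.03 to 0.51, limma-trend adjusted p = 0.115) was not called. A weak own peak inside the gene, 7:99164885-99165085, named because it is the single own peak that any of the count tests called lower, went from 16.9 ± 4.80 to 8.48 ± 1.81 (log2 -0.89, SE 0.34, limma-trend adjusted p = 0.0708); edgeR with TMM called it (0.0107), as did limma-trend without control replicate 3 (0.0362). In the same window 7:99215671-99215871, 3313 bp from Mogat2, which encodes a monoacylglycerol acyltransferase, fell from 31.1 ± 10.4 to 13.9 ± 7.77 (log2 -1.24, SE 0.32, limma-trend adjusted p = 0.0076). It measured 24.2, 20.3, 39.0 and 41.1 in controls and 10.4, 4.73, 21.7 and 18.8 in paused libraries, so that paused 3 overlapped control 2, on 3 to 70 reads per library, and it was lost without paused replicate 2 (0.0502).

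Of the lipases, Lipe passed as a gene and Pnpla2 did not; the difference between them was not tested. Pnpla2, which starts the breakdown of droplet triglyceride, had 1 own peak, 7:141455022-141455222, centred 66 bp before its start and holding the printed stretch with its pair of GC boxes. It measured 258, 252, 225 and 229 in controls and 257, 226, 244 and 226 in paused libraries, with the groups fully interleaved. The log2 change was -0.02 (95% interval -0.24 to 0.20, limma-trend adjusted p = 0.934), at a strength above 96.1% of all peaks. Of 15 tested neighbouring peaks none was called (log2 -0.79 to 0.17), with 0 higher and 3 lower at an unadjusted p under 0.05; limma-trend called 2 of them lower with TMM, near Cend1 and Gatd1, and 3 with loess, the third near Pidd1. On recovered reads edgeR called the peaks near Cend1 and Gatd1 lower with TMM, and the latter with the authors' factors, and DESeq2 called 0. As a gene sum, Pnpla2 was 0.16 below the median gene.

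Lipe, hormone-sensitive lipase, summed to 525, 533, 447 and 525 in controls and 538, 566, 649 and 634 in paused libraries. The groups did not overlap, with control 3 far below the other controls. The mean went from 507 ± 40.3 to 597 ± 53.2 (log2 0.23, SE 0.08, limma-trend adjusted p = 0.0214), 0.09 above the median gene. The call was lost without control 3 (0.0984), paused 3 (0.0759) or paused 4 (0.0872), with TMM (0.249), with loess (0.513) and without the gene's strongest peak (log2 0.11, adjusted p = 0.361).

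The called peak of Lipe (7:25379527-25398486) lay at the upstream of its 2 listed starts. There stood 7:25395619-25395819, centred 268 bp downstream of that start and 2767 bp inside the upper end of the gene. It measured 185, 213, 159 and 195 in controls and 261, 224, 240.5 and 268 in paused libraries, all paused ones above the controls. It rose by a log2 of 0.40 (SE 0.11, limma-trend adjusted p = 0.0143), and missed the threshold without control 3 (0.0752) or paused 4 (0.0654) and with TMM (0.076), loess (0.252), edgeR with TMM (0.0677) or DESeq2 (0.165). Over the downstream start, 7:25390031-25390231 measured 16.6, 15.5, 11.8 and 17.6 against 11.5, 15.8, 21.7 and 10.5. That weak peak overlapped between groups (log2 -0.08, SE 0.30, limma-trend adjusted p = 0.886), and the difference between the 2 starts was not tested. Of the 6 own peaks, 1 was too weak to be tested, and the other 3 had log2 changes of 0.09 to 0.40, none called.

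Further from Lipe in the same window, 4 of the 8 peaks nearest to Cxcl17, a chemokine gene, rose. At 7:25433243-25433443, 20457 bp from Cxcl17, controls measured 162, 161, 103 and 166 and paused libraries 255, 257, 249.8 and 255. Paused libraries lay close together and far above all controls (log2 0.80, SE 0.13, limma-trend adjusted p = 3.3e-05), and the call held in all 17 alternatives, at 0.60 to 0.86. At 7:25412932-25413132, 146 bp from Cxcl17, the value went from 10.4 ± 3.68 to 26.3 ± 9.09 (log2 1.28, SE 0.31, limma-trend adjusted p = 0.00415) on 3 to 36 reads per library, and held in all 16. The 2 others were 7:25419647-25419847, from 115 ± 4.80 to 165 ± 13.9 (log2 0.51, adjusted p = 0.00363, lost with loess and DESeq2), and 7:25436321-25436521, from 49.9 ± 11.6 to 73.5 ± 14.5 (log2 0.56, adjusted p = 0.0279), lost without control 4 (0.144), paused 2 (0.0975) or paused 4 (0.109) and with TMM (0.0921), loess (0.166), edgeR with TMM (0.0781) or DESeq2 (0.255).

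**Figure D4:**
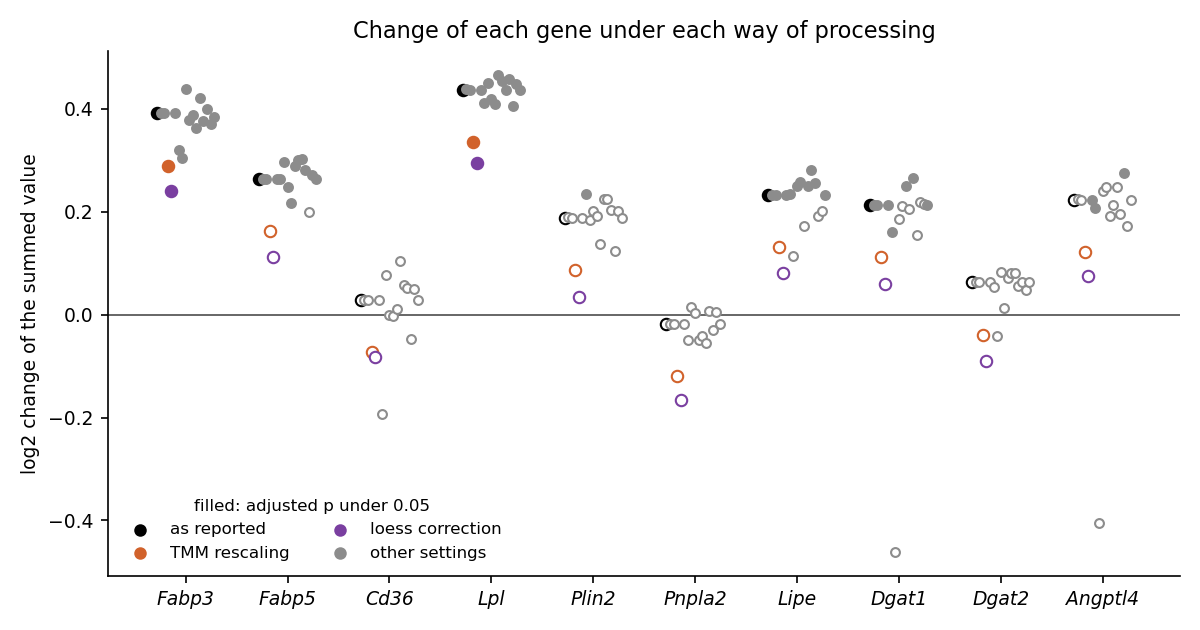
Log2 change of each gene's summed value as reported (black), with TMM (orange), with loess (purple) and under the other settings (grey); filled points have an adjusted p under 0.05. Fabp3 and Lpl are filled throughout, Fabp5, Lipe and Dgat1 lose the fill with TMM and loess, and Cd36 and Dgat2 change sign there.

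The own peaks were also split by their distance from a gene end. Within 2 kb of a gene end 4 of 13 tested rose and 0 fell, with a median log2 change of 0.22, where 11.7% of all such peaks were called, 9.81% higher and 1.85% lower, and their median was 0.15. Beyond 2 kb, 6 of 36 rose and 0 fell, with a median of 0.12, where 11.2% of all such peaks rose, 3.13% fell and the median was 0.08. The distance is to the ends of the gene, so the 36 include the peaks at both listed Lipe starts, 2767 and 8355 bp from an end. The one at the upstream start is among the 6 that rose. In limma-trend the own peaks beyond 2 kb included the 1 that was lower at an unadjusted p under 0.05, in Dgat2. Inside the genes themselves 4 of 20 tested peaks rose, in Lpl, Plin2, Lipe and Angptl4, beside 11.0% of all peaks wherever they lie.

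A wider list of 49 genes of the same pathway was followed in the same way, and 47 passed the filter. Of these 17 rose and 0 fell, beside 29.5% and 1.43% of all genes. Their median log2 change was 0.15, against 0.14 for all genes. By unadjusted p under 0.05, 21 were higher and 2 lower, without a share of all genes to set beside them. Of 216 tested peaks of the list, 33 rose and 8 fell, where 9651 and 2923 of 97324 peaks of all genes did. The group listed as triglyceride synthesis, which also holds Soat1, an enzyme of cholesteryl ester synthesis, had 6 of the 8 falls. Of the 60 tested peaks of that group, 8 rose and 6 fell. These 6 include the fall near Mogat2 already described in the window of Dgat2. By role, 7 of 16 genes of uptake and activation rose, and 1 of 6 partners of lipoprotein lipase. So did 4 of 12 droplet coat and assembly genes, 2 of 4 lipolysis genes and 3 of 9 genes listed as triglyceride synthesis. The smallest adjusted p belonged to Acsl1, which joins fatty acids to coenzyme A: it summed to 454, 443, 362 and 453 in controls and 604, 539, 585 and 541 in paused libraries, with no overlap (log2 0.41, SE 0.08, limma-trend adjusted p = 0.000368).

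Next came a pair of enzymes of glycerolipid synthesis, both without overlap between groups. Agpat2, an acyltransferase, went from 326 ± 31.7 to 444 ± 40.6 (log2 0.45, limma-trend adjusted p = 0.000404). Lpin2, a phosphatidate phosphatase, went from 351 ± 21.0 to 463 ± 37.0 (log2 0.39, limma-trend adjusted p = 0.00066). Monoglyceride lipase, Mgll, which finishes the breakdown of triglyceride, went from 565 ± 26.3 to 708 ± 61.0 (log2 0.32, limma-trend adjusted p = 0.00124). The next 6 were Fitm2, which helps droplets form, Lmf1, which matures lipoprotein lipase, the transport proteins Slc27a2 and Slc27a1, the carrier Fabp1 and the acyl-CoA synthetase Acsl6, with log2 changes of 0.26 to 0.47 and no overlap in any. With TMM, 5 of the 47 rose (Acsl1, Agpat2, Fabp1, Lpin2 and Mgll) and 2 fell (Mogat2 and Soat1, an enzyme of cholesteryl ester synthesis). With loess 3 rose (Acsl1, Agpat2 and Lpin2) and the same 2 fell. Of all genes, 7.66% rose and 2.40% fell with TMM, and 4.67% rose and 4.38% fell with loess.

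**Figure D5:**
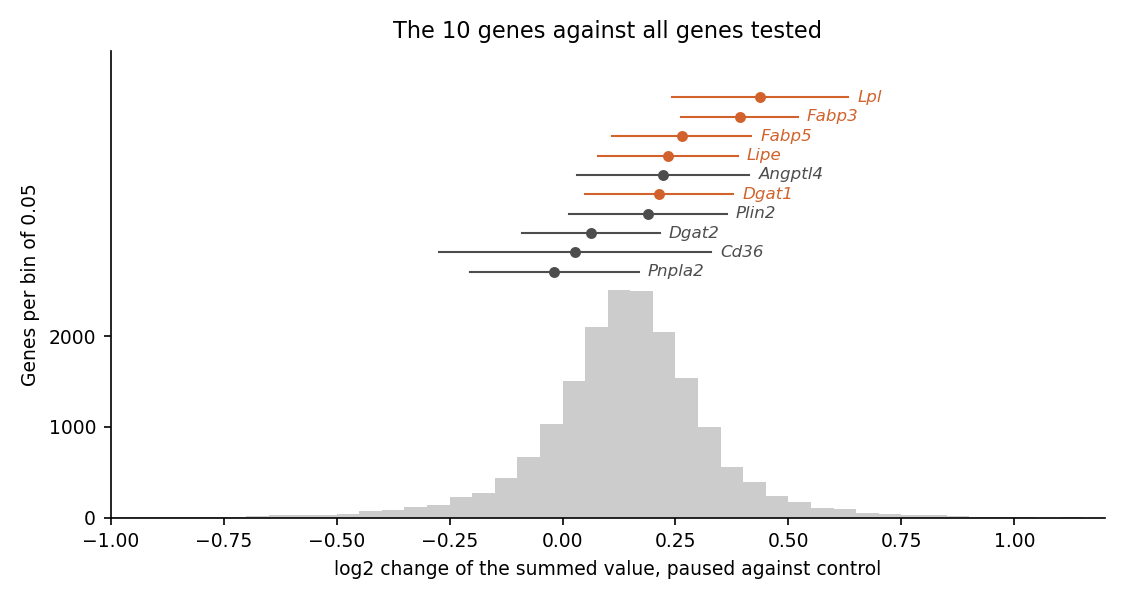
Log2 change of summed values for all 18301 genes (grey bars, genes per bin of 0.05) with the 10 genes above, each as its estimate and 95% interval; orange marks an adjusted p under 0.05. The median of all genes is 0.14 (0.04 with TMM, -0.00 with loess), and the intervals of Fabp3 and Lpl lie wholly to its right.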

How the data were processed

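The deposited table holds 1 peak set for all 8 libraries; its log2 fold, p-values and FDR are the authors' own comparison, per the file headers. The submitters' processing notes name FastQC, Trim Galore, Bowtie2 2.4.1, MACS3 3.0.3, DiffBind 3.16.0 and the build mm10, without settings; how read offsets or duplicates were treated is not given in the sources used here. The signal per library deposited by the authors is reads divided by 1 factor: 100% of values were whole multiples of 1 step (within 0.0051), so reads could be recovered. On recovered reads edgeR (quasi-likelihood) called 16142 peaks with TMM and 21045 with the authors' factors, and DESeq2 5794; missing adjusted p-values of DESeq2 were kept missing. With mm10 taken as GRCm38, 41.8% of gene ends had a peak within 1 kb, against 17.8% after a shift of 50000 bp.

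The main test was limma-trend (limma 3.58.1 in R 4.3.3; edgeR 4.0.16, DESeq2 1.42.0) on log2(value + 1), no covariates, mean value at least 10, Benjamini-Hochberg adjustment. Fold changes on this scale understate the change of weak peaks. Peak values are scaled reads, not corrected for length, as all peaks have 1 width. On data simulated for 125963 peaks it recovered 35.5% of 200 peaks changed by log2 1, and on gene sums (18394 genes) 95.5% of 200 genes. With nothing changed it called 0 peaks. The simulated reads had the same dispersion at every peak, set to a fixed value and not estimated from these libraries. All peaks of a changed gene moved alike. The exact library factors were used, so the choice of scaling was not tested. The recovered shares are thus not the sensitivity reached in these data. Read counts at weak peaks limit the precision of their values.

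Members and lists were chosen with earlier results of these data known. Peaks described with values were, by rule, the one nearest to the start (or, without strand, to either gene end) within 2 kb, the strongest own peak, and every called peak of a window, apart from 1 that is not reported here. At most 10 other pathway genes are described, by smallest adjusted p; the falls of Mogat2 and Soat1 with TMM are named because they were only 2. Alternatives were a pseudocount of 0.1, no filter or a mean of at least 50, TMM, loess (span 0.3), a block on the replicate number, the count tests, a window of 25 kb, other ways of summing a gene, and each library left out. The labels do not say what the replicate numbers mark, so the main test did not pair libraries by them. Same-numbered libraries had correlations of deviations of 0.0358 to 0.133, and the others of -0.105 to 0.0703.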

Additional observations from a re-analysis of the deposited data

Results flagged for a closer look

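In 6 of 78 groups of 4 libraries looked at, 1 library stood apart from the other 3 (its gap to the nearest, divided by the range of the group, above Dixon's 95% critical value); chance alone sets about 1 in 20 groups apart. A pair of them concerns Cd36, whose summed value was 76.4 in control replicate 4 (others 60.9 to 62.6) and 77.6 in paused replicate 3 (others 62.3 to 63.3). In the sum of Lipe, control replicate 3 was at 447 (others 525 to 533). In the same window the peak 20457 bp from Cxcl17 was at 103 in control replicate 3 (others 161 to 166), and the peak 146 bp from Cxcl17 was at 39.8 in paused replicate 4 (others 20.5 to 23.1). The sum of Dgat2 was 383 in control replicate 2 (others 433 to 443). Control replicate 3 is the shallowest library.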

How the results depend on the processing

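Under the other settings, libraries left out aside, the 29 peaks chosen by the naming rule lost a call in 47 cases, gained 1 and changed sign in 1; other peaks of the windows also gained calls, as the counts below include. Peaks called over the whole table were 10910 with a mean of at least 50, 10956 with loess and 5794 with DESeq2 (17660 as reported; 11567 to 15806 with 1 library left out, the fewest without paused replicate 4). Window peaks that rose (19) were 15 with a mean of at least 50, 8 with TMM and 7 with loess. They were 11 with edgeR and TMM, 22 with edgeR and the authors' factors and 6 with DESeq2. They were 12 within 25 kb, 4 inside the genes and 10 among own peaks, and 10 to 19 with 1 library left out. Window peaks that fell (3) were 1 with a mean of at least 50, 7 with TMM, 7 with loess, 9 with edgeR and TMM, 5 with edgeR and the authors' factors, 1 with DESeq2, 1 within 25 kb, 0 inside the genes, 0 among own peaks, and 1 to 3 with 1 library left out. Own peaks that rose (10) were 7 with a mean of at least 50, 2 with TMM and 2 with loess. They were 5 with edgeR and TMM, 11 with edgeR and the authors' factors, 2 with DESeq2 and 4 to 9 with 1 library left out. Own peaks that fell (0) were 1 in both edgeR tests and 0 to 1 with 1 library left out. Genes whose sums rose (5) were 2 with TMM, 2 with loess and 3 without each gene's strongest peak. They were 7 with all peaks within 50 kb summed. With 1 library left out they were 3 to 5, where 3610 to 5540 of all 18301 genes rose. The cause of these differences was not tested.

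The main test did not pair the libraries by replicate number, as the labels do not say what the numbers mark. Same-numbered deviations correlated at 0.0358 to 0.133. Controls 1, 3 and 4 correlated best with the paused library of the same number (0.079, 0.133 and 0.0395), and control 2 with paused 1 (0.0703). Whether same-numbered libraries share an origin was not tested. With the number as a replicate block, 21994 of 127402 peaks tested were called, 17371 higher and 4623 lower. Of the window peaks 25 rose and 6 fell, and of the own peaks 12 rose and 0 fell. In that setting 6 of the members' gene sums rose, Angptl4 among them (limma-trend adjusted p = 0.0439), where 6626 of all 18301 genes did. The Dgat1 end peak was called as well (limma-trend adjusted p = 0.0399).

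Signs turned for changes near 0. For Cd36 the sum was -0.073 with TMM, -0.082 with loess and -0.19 with all peaks in the window; with 1 library left out it ran from -0.047 to 0.10 and its peak from -0.17 to 0.076. For Dgat2 the sum was -0.039 with TMM, -0.091 with loess and -0.042 without its strongest peak. Without the strongest peak Dgat1 was at -0.46 and Angptl4 at -0.40; Pnpla2, with 1 peak, has no such value. With 1 library left out, the Pnpla2 sum and its peak ran from -0.056 to 0.016, and the peak over the downstream Lipe start from -0.27 to 0.052 (0.0086 with loess). A sum of peaks inside other genes given to those genes, chosen after seeing the data, left the 5 genes called. Depth in control replicate 3 limits weak peaks: 3 reads there are worth 5.08.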
